A study of Rattus norvegicus with 6 samples.

Results

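The genes described here are the NF-κB subunits and the inhibitors and feedback genes that work on the same pathway in rat heart: the subunits Nfkb1, Nfkb2, Rela and Relb, and the 6 genes Nfkbia, Nfkbiz, Bcl3, Tnfaip3, Birc3 and Zfp36. They were taken by symbol from a table of FPKM (fragments mapped to a gene, scaled to its transcript length and to the size of the library). All 10 were found among the 28293 genes of the table, which include genes without a symbol. The table came from total RNA sequencing of hearts of wild-type male rats. The 3 I/R samples came from myocardium made ischemic for 30 min by tying off the left anterior descending artery and then reperfused for 6 h. The 3 sham samples came from rats operated on without occlusion and carry the same times in their labels. Strain and age are not given in the sources used here. The model is one ischemia and one reperfusion time in whole tissue, and nothing in the labels says that each number is a separate rat, so the p-values below measure the spread between these samples, which may be technical. The study asked what part the heat shock protein Hsp27, encoded by Hspb1, plays in ischemia and reperfusion of the heart, with NF-κB signalling and glycolysis as one arm of the question in ischemia. The comparison of I/R with sham gives the levels of the pathway's transcripts in the tissue.

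NF-κB is a family of transcription factors that bind DNA as dimers at short κB sites. In resting cells IκB proteins hold the dimers in the cytoplasm, and signals from cytokine and Toll-like receptors activate the IKK kinases, which mark IκB for degradation so that the dimers reach the nucleus. The genes that the dimers switch on include those of several subunits and of proteins that shut the signal off again, and these genes are therefore commonly read as a transcript-level record of the pathway, in the heart as in other tissues. Such transcripts do not measure the phosphorylation, degradation or nuclear entry of the proteins themselves.

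The sequences before transcription starts of the genes are shown because κB sites in them are the classic route of this feedback. RefSeq promoter sequences of the rat assembly GRCr8 were found for 8 of the 10 genes, and not for Relb or Birc3. The start used lay 2364 bases inside the outer edge of the annotated gene for Nfkb2, 435 for Nfkb1 and 235 for Nfkbia. The bases searched for these genes therefore lay wholly or mostly within the annotated gene. The 250 bases before the transcription start were searched on both strands for the κB consensus, a pattern of 10 bases that opens with GGG, closes with CC and limits most of the bases between them, so that not every run with these ends is a match. At least 1 match stood before the start used for 5 of the 8 genes. This was so for 1185 of all 33469 promoters (3.54%) and 369 of the 8831 promoters of genes that were tested below (4.18%). Among the 10376 promoters whose GC content was at least that of the lowest of these genes, the share was 5.45%. A match is a run of letters and not a measured binding site, and the absence of one before Nfkb1, Rela and Zfp36 says only that no run in that window meets the whole pattern. Tnfaip3 held 3 matches, the last pair of them separated by 2 bases, and 0.0508% of all promoters held 3 or more. Each run below is written 5′ to 3′ in the direction of its gene with the matches in capitals, and a match on the opposite strand therefore opens with GG and closes with CCC. The Nfkb2 run lies at chr1:255108344-255108373 on the plus strand, the Nfkbia run at chr6:78597084-78597113 on the minus strand, the Nfkbiz run at chr11:58251698-58251720 on the plus strand and the Bcl3 run at chr1:88613574-88613603 on the minus strand. The Tnfaip3 run, at chr1:15543994-15544229 on the minus strand, spans 236 bases and is printed whole so that the spacing of its matches can be seen.
Nfkb2: tggtattttcGGGACTTTCCtaagagcact
Nfkbia: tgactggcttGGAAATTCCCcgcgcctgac
Nfkbiz: tttttggcctGGGAATTTCCagc
Bcl3: tcggcggcagGGGAAGTCCCgcagcccggc
Tnfaip3: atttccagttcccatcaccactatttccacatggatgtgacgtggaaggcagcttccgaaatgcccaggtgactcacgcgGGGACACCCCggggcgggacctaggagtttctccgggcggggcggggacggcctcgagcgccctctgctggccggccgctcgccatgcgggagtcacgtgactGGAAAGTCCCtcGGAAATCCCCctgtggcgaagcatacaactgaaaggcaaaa

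**Figure D1:**
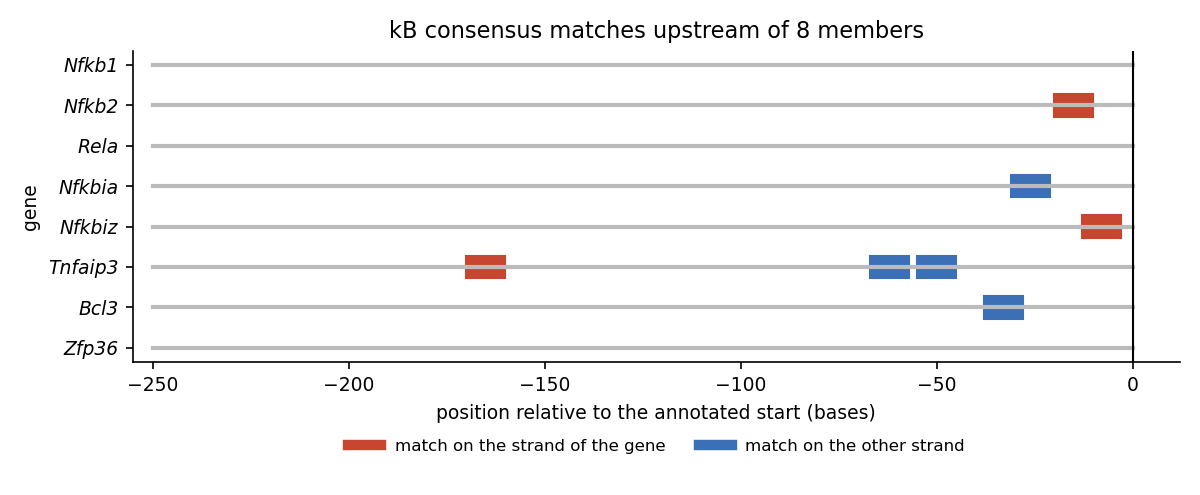
Position of each κB consensus match in the 250 bases before the transcription start, in bases from the start on the horizontal axis and one row per gene with a RefSeq promoter, coloured by the strand of the match. The single matches of Nfkb2, Nfkbia, Nfkbiz and Bcl3 lie within the last 38 bases before the start, whereas Tnfaip3 has 1 match beginning 170 bases before it and a close pair beginning 67 and 55 bases before it.

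Some facts of the libraries bear on every value that follows. Mitochondrially encoded mRNAs took 80.1% to 86.2% of the summed FPKM in the sham samples and 61.8% to 71.5% in the I/R samples, so a smaller share of the total was left for nuclear genes in sham. Steps in the low values put the depth of the I/R samples at 0.873 to 0.935 times that of sham 1 and the other sham samples at up to 1.18 times, while the number of reads itself is unknown. The summed FPKM of 7 cardiomyocyte markers was 3465 to 11364 in sham and 23353 to 33681 in I/R, and that of 10 neutrophil and monocyte markers was 17.5 to 28.6 in sham and 52.3, 95.01 and 121.7 in I/R 1, 2 and 3.

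Transcripts of all 4 subunits were higher after reperfusion, and 9 of the 10 genes passed the test as higher and none as lower. The exception, Nfkbia, was also at its higher levels in the I/R samples. In each of the 10 genes every I/R sample was above every sham sample. Among the 10942 genes tested, 25.5% were called higher, 7.36% were called lower and 37.2% had every I/R sample above every sham sample. The median log2 fold change on the log2(FPKM + 0.1) scale was 2.12 over the 10 genes, 1.76 over the subunits and 2.32 over the inhibitors and feedback genes, beside 0.29 over all genes tested. Calls are from limma at a Benjamini-Hochberg adjusted p of 0.05 over all genes tested. With 3 samples against 3 the exact two-sided permutation test of a single gene cannot go below 0.1, and it gave 0.1 for each of the 10. The scale matters for the weaker of these calls. With the values rescaled over genes other than the mitochondrially encoded mRNAs, which moved the median of all genes to -0.46 and turned the split of calls to 793 higher and 2857 lower, 7 of the 10 stayed called higher, and Rela (adjusted p = 0.344) and Nfkb1 (adjusted p = 0.0626) did not pass. Centred on the cardiomyocyte markers, none of the 10 was called higher and 2 were called lower, and the median of all genes was -2.01. This centring moves every log2 fold change by the same amount, so the place of the 10 above that median could not change. In whole tissue, fewer cells of a type and less RNA per cell cannot be told apart.

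**Figure D2:**
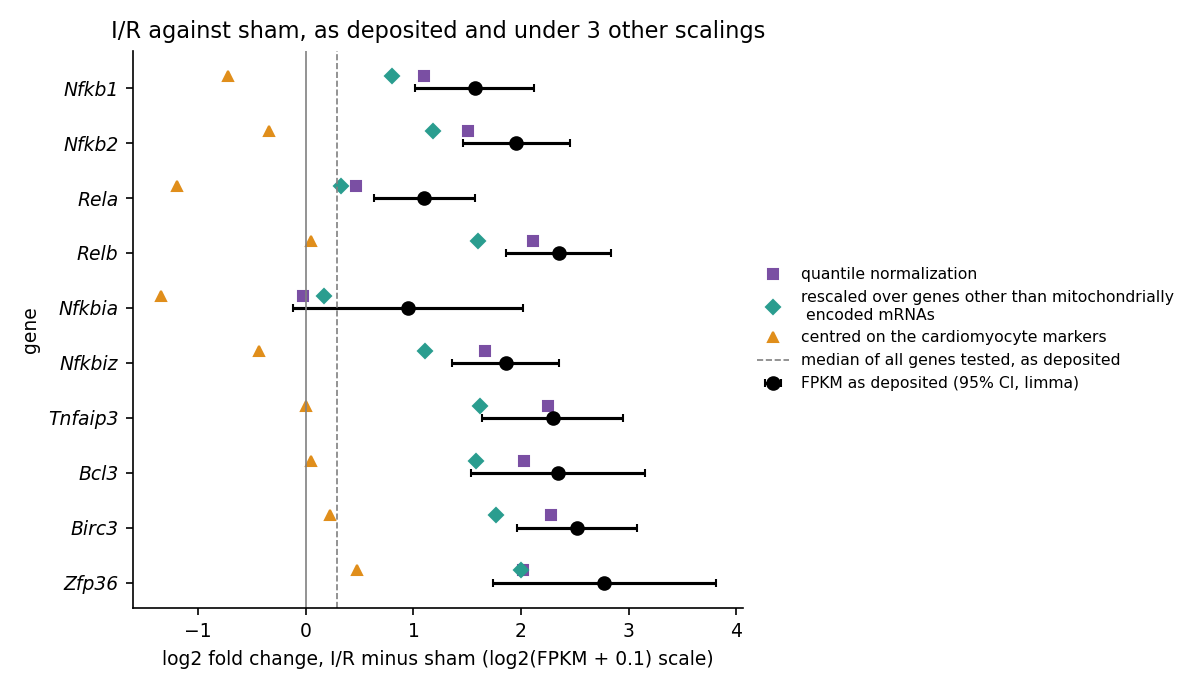
Log2 fold change of each of the 10 genes, I/R minus sham on the log2(FPKM + 0.1) scale, as black points with bars for the 95% confidence interval from limma on 3 samples per group. Squares, diamonds and triangles give the values under quantile normalization, the rescaling without mitochondrially encoded mRNAs, and the scale centred on cardiomyocyte markers, and the dashed line is the median of all genes. Among the black points Zfp36 is the highest at 2.77 and Nfkbia the lowest at 0.95, and the interval of Nfkbia alone reaches below 0.

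Rela encodes the subunit with the strong activation domain of the canonical dimer. Its level was 6.82, 7.93 and 7.08 FPKM in sham 1, 2 and 3 and 17.0, 15.9 and 14.4 FPKM in I/R 1, 2 and 3. Every I/R sample was well above the highest sham sample, and the means were 7.28 ± 0.58 and 15.8 ± 1.33 FPKM (SD, n = 3 each). The log2 fold change was 1.10 with a standard error of 0.21 (adjusted p = 0.0057), and 16.4% of the genes tested had a higher one. Nfkb1 encodes the precursor of its usual partner. It stood at 3.06, 4.85 and 3.52 FPKM in sham and 9.46, 12.3 and 12.4 FPKM in I/R. Its mean went from 3.81 ± 0.93 to 11.4 ± 1.65 FPKM, a log2 fold change of 1.57 with a standard error of 0.25 (adjusted p = 0.0035). These were the smallest changes among the 9 genes called.

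The log2 fold changes of the subunits of the non-canonical branch were 1.95 and 2.35. Nfkb2, whose precursor protein acts both as an inhibitor and as the source of the partner of RelB, was measured at 3.68, 3.17 and 2.63 FPKM in sham and at 11.2, 13.7 and 12.5 FPKM in I/R. The groups were far apart beside their spread, with means of 3.16 ± 0.523 and 12.5 ± 1.25 FPKM and a log2 fold change of 1.95 with a standard error of 0.22 (adjusted p = 0.0012). Relb, which pairs with the processed Nfkb2 product, was low and even in sham at 1.28, 1.26 and 1.18 FPKM and reached 5.91, 8.19 and 6.23 FPKM in I/R. Its log2 fold change of 2.35 had a standard error of 0.22 (adjusted p = 0.00050), and only 1.72% of the genes tested had a higher one. The fifth subunit gene, Rel, is not among the 10 and did not reach the filter at a mean of 0.5 FPKM, which Tnfaip3 below passed through its I/R values. Named after its values were seen, it was at 0.0841, 0.0831 and 0.0864 FPKM in sham and 1.03, 0.922 and 0.636 FPKM in I/R, and in the fit without a filter its log2 fold change was 2.36 (adjusted p = 0.014).

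**Figure D3:**
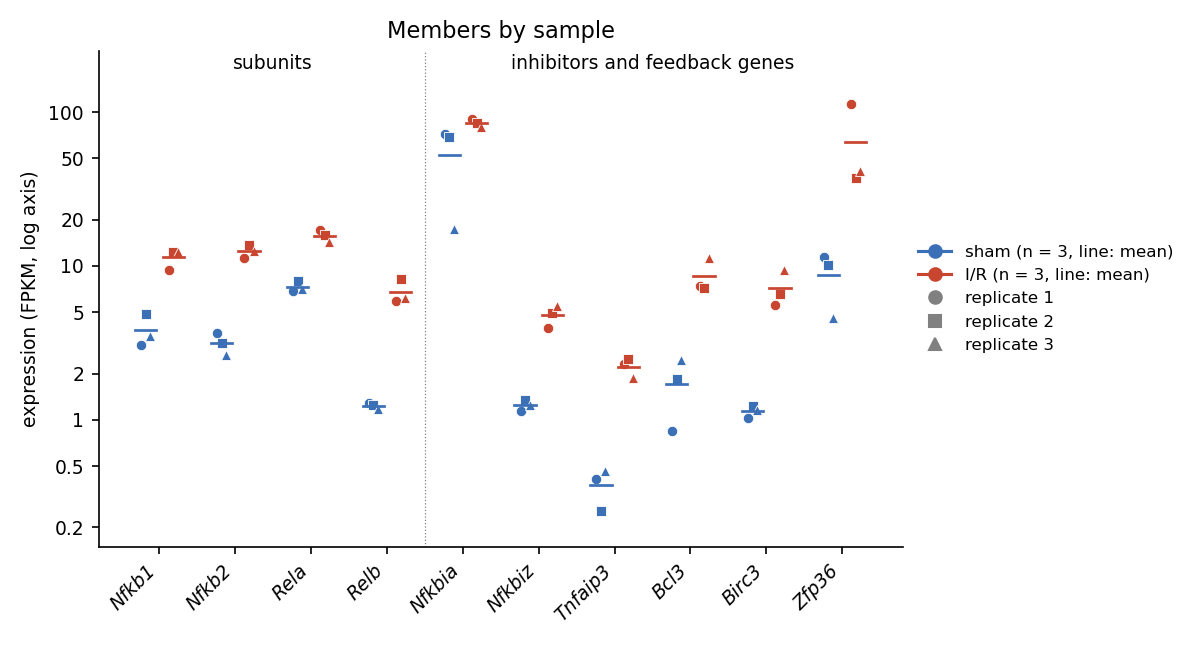
FPKM of the 10 genes in each of the 6 samples on a log axis, with one point per sample, shaped by replicate number, and a line at the mean of each group. The I/R points lie above the sham points for every gene, and sham 3 of Nfkbia at 17.2 FPKM and I/R 1 of Zfp36 at 112.9 FPKM stand away from the other samples of their groups.

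Nfkbia, which encodes IκBα, the inhibitor that is degraded on activation and resynthesised under NF-κB's own control, was by far the most abundant of the 10 in sham 1 and sham 2. It was at 71.9, 68.5 and 17.2 FPKM in sham and 90.5, 85.0 and 79.7 FPKM in I/R. The I/R samples were close to each other and the sham samples were not, with coefficients of variation of 6.39% and 58.3%. The lowest I/R sample was only 1.11 times the highest sham sample. The log2 fold change was 0.95 with a 95% interval from -0.12 to 2.02 (adjusted p = 0.153), and it did not pass the test. Without sham 3 it fell to 0.27 (adjusted p = 0.499), so much of its size came from that sample.

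Bcl3 and Nfkbiz encode nuclear members of the IκB family, which bind the subunits on DNA and can raise or lower transcription there, and both were called higher. Bcl3, a partner of the Nfkb1 and Nfkb2 products, was at 0.848, 1.84 and 2.46 FPKM in sham and 7.36, 7.18 and 11.3 FPKM in I/R. Sham 1 was less than 0.5 times each of the other sham samples, and the log2 fold change was 2.35 with a standard error of 0.36 (adjusted p = 0.0033), or 1.93 without that sample. Nfkbiz, which encodes IκBζ, was steadier at 1.14, 1.35 and 1.24 FPKM in sham and 3.95, 4.96 and 5.48 FPKM in I/R. Its mean rose from 1.24 ± 0.107 to 4.80 ± 0.781 FPKM, a log2 fold change of 1.86 with a standard error of 0.22 (adjusted p = 0.0015). A further nuclear member, Nfkbid, went the other way. It is not among the 10, lay under the filter and was named after its values were seen, with 0.345, 0.265 and 0.294 FPKM in sham and 0.0989, 0.0231 and 0.135 FPKM in I/R. In the fit without a filter its log2 fold change was -1.16 (adjusted p = 0.0499), and it was called lower.

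Tnfaip3 and Birc3, whose products act on ubiquitin chains upstream of IKK, were both called higher. Tnfaip3 encodes a ubiquitin-editing enzyme that ends the signal from several receptors, and it was the least abundant of the 10 in both groups. Its level was 0.410, 0.257 and 0.466 FPKM in sham and 2.29, 2.50 and 1.87 FPKM in I/R. The fold between the means was 5.87, while the log2 fold change was 2.30 with a standard error of 0.29 (adjusted p = 0.0021) and is damped by the added 0.1 FPKM at this low level. Birc3 encodes a ubiquitin ligase that works at the TNF receptor complex and restrains the non-canonical branch. It was at 1.03, 1.24 and 1.16 FPKM in sham and 5.56, 6.55 and 9.48 FPKM in I/R, and its log2 fold change was 2.52 with a standard error of 0.25 (adjusted p = 0.00061). Its relative Birc2 was also called higher, by a log2 fold change of 0.97 (adjusted p = 0.0195). Birc2 was not called higher under quantile normalization or in the rescaling without mitochondrially encoded mRNAs.

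Zfp36 encodes tristetraprolin, a protein that binds AU-rich elements in the mRNAs of cytokines and speeds their decay. It was at 11.4, 10.2 and 4.56 FPKM in sham and 112.9, 37.5 and 41.3 FPKM in I/R. I/R 1 was far above the other I/R samples and sham 3 was below the other sham samples, yet the groups were well apart. The log2 fold change was 2.77 with a 95% interval from 1.74 to 3.81 (adjusted p = 0.0039), the highest of the 10. Only 0.813% of the genes tested had a higher one. Without I/R 1 it was 2.27 (adjusted p = 0.0097), below Birc3 at 2.69. Without sham 3 it was 2.37 (adjusted p = 0.014), below Bcl3 at 2.65, so its place as the highest was kept in neither fit. Its paralogs Zfp36l1 and Zfp36l2 had log2 fold changes of -0.03 and 0.14, and neither passed the test.

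FPKM is per length, so levels can be set beside each other between genes. In sham the order was Nfkbia, then Zfp36 and Rela, whose ranges overlapped, then Nfkb1 and Nfkb2, which also overlapped, then Bcl3, Nfkbiz, Relb and Birc3, each overlapping its neighbour, and last Tnfaip3. In I/R the ranges of Nfkbia and Zfp36 overlapped at the top through I/R 1 alone, since Zfp36 was below Nfkbia in I/R 2 and 3. Rela followed, and Nfkb2, Nfkb1, Bcl3, Birc3 and Relb formed a run of overlapping neighbours above Nfkbiz and Tnfaip3.

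Whether the other genes changed by as much as Rela was examined by a measure that a library's overall scale cannot change, the log2 ratio of a gene's FPKM to that of Rela within a sample, with nothing added. The ratio of 7 of the 9 other genes was higher in every I/R sample than in every sham sample, against 3.69% of all genes tested, and Rela had the smallest log2 fold change of the 9 genes called. The mean log2 ratio was higher in I/R by 0.83 for Nfkbiz, 0.88 for Nfkb2, 1.31 for Bcl3, 1.33 for Relb, 1.47 for Tnfaip3, 1.51 for Birc3 and 1.68 for Zfp36. Each of these reached the exact permutation p of 0.1 that is the smallest possible here, which is 0.129 after Benjamini-Hochberg adjustment over the 9 ratios, so none can pass 0.05. The log2 ratio of Nfkb1 to Rela differed by 0.48 and its groups overlapped (exact permutation p = 0.2). Taken in pairs of equal replicate number, as added after the data were seen, the ratio to Rela was higher in I/R in 3 of 3 pairs for Nfkb1 and for each of the 7, and in 1 of 3 for Nfkbia, where 3 pairs cannot give an exact p below 0.25. That of Nfkbia to Rela was 3.40, 3.11 and 1.28 in sham and 2.41, 2.42 and 2.47 in I/R. The I/R values lay between those of sham 3 and the other sham samples (exact permutation p = 1). None of the ratios shows that a gene was unchanged.

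**Figure D4:**
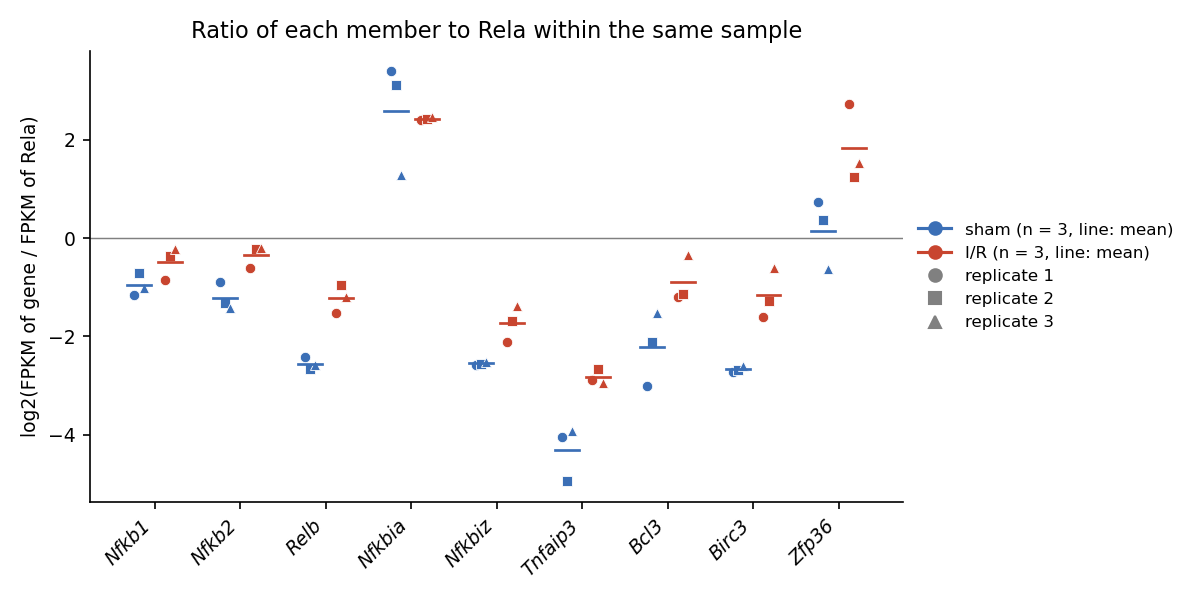
Log2 ratio of each of the 9 other genes to Rela within each sample, one point per sample, a line at the mean of each group, and the sham and I/R groups side by side. The groups overlap for Nfkb1 and Nfkbia, and for the other 7 genes the I/R samples lie above the sham samples.

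The rest of the pathway was read from lists of 100 further genes ordered by role, of which 75 passed the filter. Of these, 31 were called higher and 5 lower, beside 25.5% and 7.36% of all genes, with a median log2 fold change of 0.54. The target genes described below made up 20 of the 31, so the pooled count says little of the other roles. Among 15 IKK subunits and signalling kinases, 1 was called higher and 3 lower, with a median of -0.11, against 0.29 for all genes. The share called higher was below the 25.5% of all genes and the share called lower above the 7.36%. The catalytic IKK subunits Chuk and Ikbkb had log2 fold changes of 0.10 and -0.17 and neither passed. Tab2, an adaptor of the kinase TAK1, was the one called higher, by 0.81 (adjusted p = 0.0404). The 3 called lower were Ikbke, a kinase of the IKK-related group, by -1.59 (adjusted p = 0.0123), Irak4, which relays Toll-like receptor signals, by -0.90 (adjusted p = 0.0274), and Irak3, which restrains them, by -0.78 (adjusted p = 0.0484). Of these few calls, those of Tab2 and Irak3 are near the threshold. Without sham 3 none of the 15 was called in either direction. Under quantile normalization none was called higher and 4 lower, and in the rescaling without mitochondrially encoded mRNAs none was called higher and 8 lower, with a median of -0.87. As TPM the median was 0.08, so its sign depends on the scale.

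Among 16 adaptors and ubiquitin ligases, 3 rose and 1 fell, shares no higher than the 25.5% and 7.36% of all genes. The median log2 fold change was 0.35. Under quantile normalization none of the 16 was called, and in the rescaling without mitochondrially encoded mRNAs 4 were called lower and none higher, with a median of -0.38. Ube2n, the enzyme that builds the chains on which IKK activation depends, had the highest log2 fold change at 1.05 (adjusted p = 0.0121), and Myd88, the adaptor of Toll-like and IL-1 receptors, rose by 0.70 (adjusted p = 0.0326). Traf1 had the lowest, at -0.80 (adjusted p = 0.0497). In the remaining part of the Rel and IκB families 3 of 7 genes passed the filter and 1 rose. Without a filter 5 were tested, 2 were called higher and 1, Nfkbid, lower. The one that rose in the filtered fit was Nfkbib, the gene of IκBβ, at 2.80, 1.64 and 1.38 FPKM in sham and 9.10, 6.76 and 8.45 FPKM in I/R, a log2 fold change of 2.06 (adjusted p = 0.0026). Nfkbie, the gene of IκBε, had 0.33 (adjusted p = 0.436) and was the lowest of the 3.

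Of 17 other negative regulators tested, 5 were called higher and 1 lower, which is near the 25.5% and 7.36% of all genes. In the rescaling without mitochondrially encoded mRNAs 2 were called higher and 7 lower, and under quantile normalization 3 and 2. Their median was 0.14 in this fit, -0.11 after centring on the median of all genes, -0.42 under quantile normalization, -0.64 in the rescaling without mitochondrially encoded mRNAs and -0.01 without sham 1. Socs3, a feedback inhibitor of cytokine receptor signalling, was the highest at 0.947, 1.40 and 2.89 FPKM in sham and 22.5, 13.5 and 21.8 FPKM in I/R (log2 fold change 3.49, adjusted p = 0.00095). Zc3h12a, which encodes the endoribonuclease Regnase-1 that cuts cytokine mRNAs, had a log2 fold change of 2.23 (adjusted p = 0.0014). Socs1, Tnip1 and Tollip were the others called higher and Pdlim2 was the one called lower. The lowest log2 fold change was -0.75 for the deubiquitinase gene Otud7b, which did not pass (adjusted p = 0.0569).

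Of 30 listed target genes of NF-κB, 22 passed the filter, and 20 of these were called higher and none lower, with a median log2 fold change of 2.30. In 5 of the 22, Il6, Cxcl2, Csf3, Sele and Nos2, the sham mean was under 0.5 FPKM, so they passed the filter through their I/R values. The other 8 were under the filter, among them Tnf and Il1a, whose log2 fold changes without a filter were -0.18 and 0.12 and were not called. Without a filter 21 of 29 targets were called higher and none lower, beside 11.4% and 3.32% of all genes in that fit. The neutrophil attractant Cxcl1 was the highest, at 0.590, 0.539 and 0.976 FPKM in sham and 55.98, 99.3 and 102.1 FPKM in I/R, a log2 fold change of 6.73 (adjusted p = 1.2e-05). Irf1 was the lowest at 0.36 (adjusted p = 0.326), and Bcl2a1 was the other gene not called. The count of targets called higher was 18 under quantile normalization, 16 in the rescaling without mitochondrially encoded mRNAs and 5, with 2 lower, after centring on the cardiomyocyte markers. The study's own upstream gene Hspb1 was higher by a log2 fold change of 2.18 (adjusted p = 0.0022). Pfkfb3, a glycolytic regulator, had 0.73 and did not pass (adjusted p = 0.0505), though it did as TPM, under quantile normalization and with a pseudocount of 0.01. Only 1 of these 2 genes was called higher in the rescaling without mitochondrially encoded mRNAs, with the replicate block and in each fit that left out 1 sample. After centring on the cardiomyocyte markers neither was called higher and 1 was called lower.

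**Figure D5:**
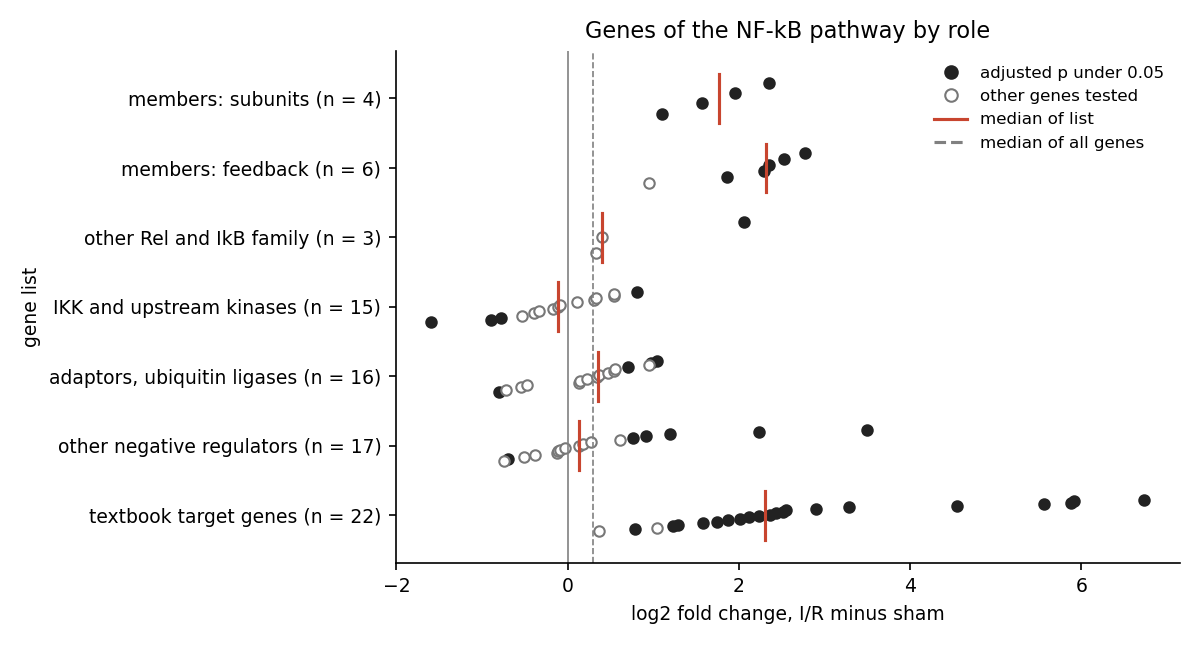
Log2 fold change, I/R minus sham on the log2(FPKM + 0.1) scale, of every tested pathway gene, one point per gene in a row for each role, filled where the adjusted p passed 0.05, with a red bar at the median of the list and a dashed line at that of all genes. The 10 genes and the targets lie mostly to the right of 0, with medians of 2.12 and 2.30, while the kinases lie around 0 with a median of -0.11.

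Markers of other cells moved with some of these results. Of the neutrophil and monocyte markers 6 of 10 passed the filter and 5 were called higher, with a median log2 fold change of 1.996, and none was at 0 in all samples. Their sum was lowest in I/R 1, where Nfkb1, Nfkb2, Relb, Nfkbiz and Birc3 were also at their lowest I/R level and Rela, Nfkbia and Zfp36 were at their highest. The 7 cardiomyocyte markers had a median of 2.28 and 6 were called higher. The 9 macrophage markers, with a summed FPKM of 62.3 to 72.6 in sham and 80.3 to 100.5 in I/R, had 1 called higher and 2 lower. The 6 markers shared by all leukocytes had none called and a median of 0.0053, and the 8 endothelial markers had none called and a median of -0.22. Of 7 fibroblast markers 2 were called higher, of 7 smooth muscle and pericyte markers 1 was called higher and 1 lower, of 4 lymphocyte markers 1 was called lower, and none of 3 red blood cell markers nor the 1 adipocyte marker tested was called. The part of any of these cells in the levels of the 10 genes was not tested.

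The likeness of other genes to the 10 was measured by Pearson's r between a gene's log2(FPKM + 0.1) and the mean centred profile of the 10 over the 6 samples, as a description without a test. Epb41l1 and Emc4 were among the genes with the highest r, each at 0.997. As 612 of the 10932 other genes tested had an r of at least 0.95, such values are common where samples fall into 2 groups. Within the 10, Nfkb2 followed the mean profile most closely at 0.991 and Nfkbia least at 0.639. Each of the 10 is itself part of that mean, which raises its r, so these values do not compare with those of other genes.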

How the data were processed

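RNA of 3 sham and 3 I/R samples of rat heart was sequenced with a stranded total RNA kit. The authors deposited FPKM per gene. The submitters' processing notes name STAR and HTSeq without versions or roles, and the genome build and annotation are not given in the sources used here. Of 30452 rows, 7092 had no symbol and were kept under their gene identifier. Rows of one symbol were summed, giving 28293 genes. The shares over all genes therefore include the genes without a symbol that passed the filter. Genes whose FPKM averaged 0.5 or more across the 6 samples, 10942 in number, were tested on log2(FPKM + 0.1) with limma 3.58.1 (lmFit and eBayes with a trend) in R 4.3.3, with Benjamini-Hochberg adjustment over all of them and a threshold of 0.05. The script was tested on simulated data. Single values were compared with the exact two-sided permutation test. The number of reads is unknown, so no counting error could be given.

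The 10 genes, the pathway lists and the marker lists were chosen with earlier results of these data known. Besides the 10, the rule named the tested gene with the highest and the one with the lowest log2 fold change of each pathway list, Hspb1, Pfkfb3 and the 3 genes most like the 10, of which 1 is not reported here. Other named genes were chosen after their values were seen. Sham and I/R samples share replicate numbers in the labels. Once group means were subtracted, the sham and I/R samples of numbers 1, 2 and 3 correlated at 0.203, 0.117 and 0.118 across genes. Samples of unequal numbers correlated at -0.185 to 0.12, so these values do not settle whether the samples are paired. A fit with the replicate block was run as an alternative. The others were 2 pseudocounts, 2 filters, 5 scalings, limma without the trend and leaving out each sample. Promoters were matched by symbol in RefSeq sequences of GRCr8.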

Additional observations from a re-analysis of the deposited data

How the results depend on the processing

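Of the 10 genes, 9 were called higher with either other pseudocount, without a filter, as TPM, with the median of the genes tested set to 0, without the trend, with the replicate block and in each fit that left out 1 sample. The block changed no call among the 10 and gave 3085 higher and 895 lower calls over all genes. With the filter at a mean FPKM of 5, 6 of the 10 could be tested and 5 were called higher, and 166 genes in all were called lower. Over all genes, against 2790 higher and 805 lower calls, TPM gave 504 lower, centring on the median gave 1554 lower, quantile normalization gave 1441 higher and 1559 lower, the rescaling without mitochondrially encoded mRNAs gave 793 higher and 2857 lower, and centring on the cardiomyocyte markers gave 35 higher and 8977 lower. Under quantile normalization 8 of the 10 were called, Rela was at 0.47 (adjusted p = 0.0727) and Nfkbia reversed to -0.029. Centred on the cardiomyocyte markers 0 of the 10 were called higher and 2 lower, and the log2 fold changes of Nfkb1 (-0.73), Nfkb2 (-0.34), Rela (-1.19), Nfkbia (-1.35), Nfkbiz (-0.44) and Tnfaip3 (-0.00091) reversed; the scale subtracts the rise of those markers. Leaving out 1 sample gave 1528 to 2557 higher calls, the fewest without sham 3, and 309 to 881 lower calls, the fewest without sham 2. As the number of reads is unknown, the counting error at low levels such as those of Tnfaip3 and Rel could not be given. Taking the ratios to Rela with the replicate block, within pairs, left each mean difference as it was and none past the threshold.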

Other observations

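Nfkbia and Zfp36 were 2 of 218 tested genes (1.99%) whose FPKM in sham 3 was less than 0.5 times that in each of the other sham samples, against 287 genes, Bcl3 among them, for sham 1 and 75 for sham 2. The cell cycle inhibitor gene Cdkn1a was at 21.9 and 24.1 FPKM in sham 1 and 2 and 2.30 FPKM in sham 3. The ratio of sham 3 to the lower of the other sham samples was 0.105 for Cdkn1a, 0.234 for Apold1, 0.252 for Nfkbia, 0.256 for Errfi1, 0.317 for Sgk1, 0.328 for Cebpd, 0.336 for the clock gene Per1 and 0.369 for Ddit4. Ttr (0.239), AC128848.1 (0.295), Asb2 (0.309) and Gadd45g (0.332) lay among these values too, and genes with a low sham mean were left out. The genes named were chosen after their values were seen, and the cause was not tested.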
